A study of Mus musculus with 24 samples.

Results

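The cytosolic heat shock proteins described here are 10 chaperone genes, and they were measured in the livers of 24 female NMR-1 mice on 4 diets. The members were the probe sets whose platform gene symbol is Hspa1a, Hspa1b, Hspa8, Hsp90aa1, Hsp90ab1, Hsph1, Dnaja1, Dnajb1, Hspb1 or Hspb8. Of the 10 genes, 9 had a named probe set, and Hsp90ab1 was not analysed here. The 9 genes had 25 probe sets of 45101 on the array, and 23 of them lay above 3.147, the median over the whole table, on 6 or more arrays. This left 8 of the 13385 genes tested, and Hspa1a was the member that did not pass. Members were listed by gene name, but with earlier results of these data known, so the choice was not independent of the values.

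All mice were 8 weeks old at the start and were fed for 2 weeks, 6 per diet. The Pellet diet was the feed on which they were raised, the Chimpanzee diet was fruit, vegetables and yogurt, the HumanCafe diet was cooked cafeteria food, and the FastFood diet was fast food alone. Each diet had 3 mice in each of 2 processing batches, with 1 array per mouse. The question was how food of humans and of chimpanzees differs in its effect on expression, and for that purpose the study took the 2 diets of human food together (human diets). All values are log2 expression per probe set, so levels are compared between diets and never between genes.

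Cytosolic chaperones keep proteins from clumping and help them to fold. HSP70 proteins bind exposed stretches of unfolded clients in a cycle driven by ATP, J-domain proteins (DNAJ) deliver clients and speed up ATP hydrolysis, and HSP110 proteins exchange the nucleotide. HSP90 acts later on signalling proteins, and small heat shock proteins hold unfolded chains without ATP. When unfolded proteins build up, heat shock factor 1 (HSF1) binds repeats of the unit nGAAn in promoters and raises transcription of many of these genes.

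Promoter sequence from RefSeq (GRCm38.p6, 250 bases before to 50 after a start site) was at hand for 7 of the 10 members. These windows were searched on both strands for 2 facing units of the HSF1 repeat, GAANNTTC or TTCNNGAA, which each read the same on both strands and can overlap each other. A match was found in 6 of the 7 members, in every one but Dnajb1, and in 17% of 27025 genes with windows. A longer run, TTCNNGAA or GAANNTTC with a further unit 2 bases after it (3 units in all, each facing the next), was found in Hsph1 alone among the members and in 0.662% of all genes. The stretches below show where these matches lie in 4 members, with the units in capitals. Hspa1b and Hsph1 are shown as the members with the largest diet differences, Dnaja1 as a J-domain member that differed, and Hspb1 as a member that carried 2 matches while its main probe set was not called. The Hspa1b stretch is chr17:34959239-34959388 (minus strand), the 150 bases before the start.
Hspa1b: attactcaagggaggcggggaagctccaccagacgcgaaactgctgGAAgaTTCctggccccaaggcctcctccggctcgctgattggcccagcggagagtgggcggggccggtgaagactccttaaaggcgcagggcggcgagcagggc
The Hsph1 stretches are chr5:149636316-149636465 (minus strand), the 150 bases before the start of 1 of its windows, and chr5:149636283-149636312, from base 4 to base 33 after it, which holds the run of 3 units.
Hsph1 before the start: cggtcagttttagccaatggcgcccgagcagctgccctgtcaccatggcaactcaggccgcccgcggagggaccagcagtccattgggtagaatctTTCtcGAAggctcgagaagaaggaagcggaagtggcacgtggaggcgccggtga
Hsph1 after the start: aaatgctgcagaTTCtgGAAagTTCtcctc
The Dnaja1 stretch is chr4:40722318-40722467 and the Hspb1 stretch is chr5:135887769-135887918, both plus strand and both the 150 bases before a start.
Dnaja1: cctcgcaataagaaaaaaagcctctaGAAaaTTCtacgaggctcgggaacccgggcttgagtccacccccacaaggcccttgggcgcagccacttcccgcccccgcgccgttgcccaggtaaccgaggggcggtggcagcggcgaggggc
Hspb1: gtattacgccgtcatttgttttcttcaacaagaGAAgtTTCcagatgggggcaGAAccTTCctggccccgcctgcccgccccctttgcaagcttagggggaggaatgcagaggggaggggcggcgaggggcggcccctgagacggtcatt

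A match is a string of letters and not a measured binding site. The windows of Hspa1a and Hspa1b differed at 4 of 300 bases, and at 1 of the last 150 before the start. These genes code for nearly the same protein, and their signals cannot be told apart here.

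Member levels also differed between the batches. Of the 8 members 7 had a higher mean in batch 1 than in batch 2, by 0.17 (Hspa8) to 0.95 (Hsph1), and Hspb1 was lower by 0.13. The batch was a covariate in the fits reported for each comparison. The 90th percentile of an array, a measure of its signal range, ran from 5.66 to 6.61, and was lowest in HumanCafe batch 2 replicate 3 (5.66), Chimpanzee batch 2 replicate 1 (5.80), FastFood batch 2 replicate 2 (5.85) and Chimpanzee batch 2 replicate 2 (5.87). Hepatocyte markers were high in every group, with list means of 11.87 to 12.01 (7 of 8 markers tested).

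Across the 4 diets, 5 of the 8 members differed by limma's moderated F over 24 mice, with an adjusted p under 0.05, while 9% of all 13385 genes did. These were Hsph1, Hspa1b, Dnaja1, Dnajb1 and Hspa8. For each of the 5, on its probe set of highest mean, the pellet mean was the lowest of the 4 diet means and the chimpanzee mean the highest. Further probe sets of Dnaja1 and Hspa8 did not all keep this order. The fast food mean was above the chimpanzee mean for Dnaja1 (8.61 against 8.53, and 7.70 against 7.37) and for Hspa8 (8.58 against 8.53). On the dimmest Hspa8 probe set the chimpanzee mean was the lowest (4.21, with pellets at 4.46). Hsp90aa1, Hspb1 and Hspb8 did not pass, with adjusted p of 0.811, 0.489 and 0.325.

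**Figure D1:**
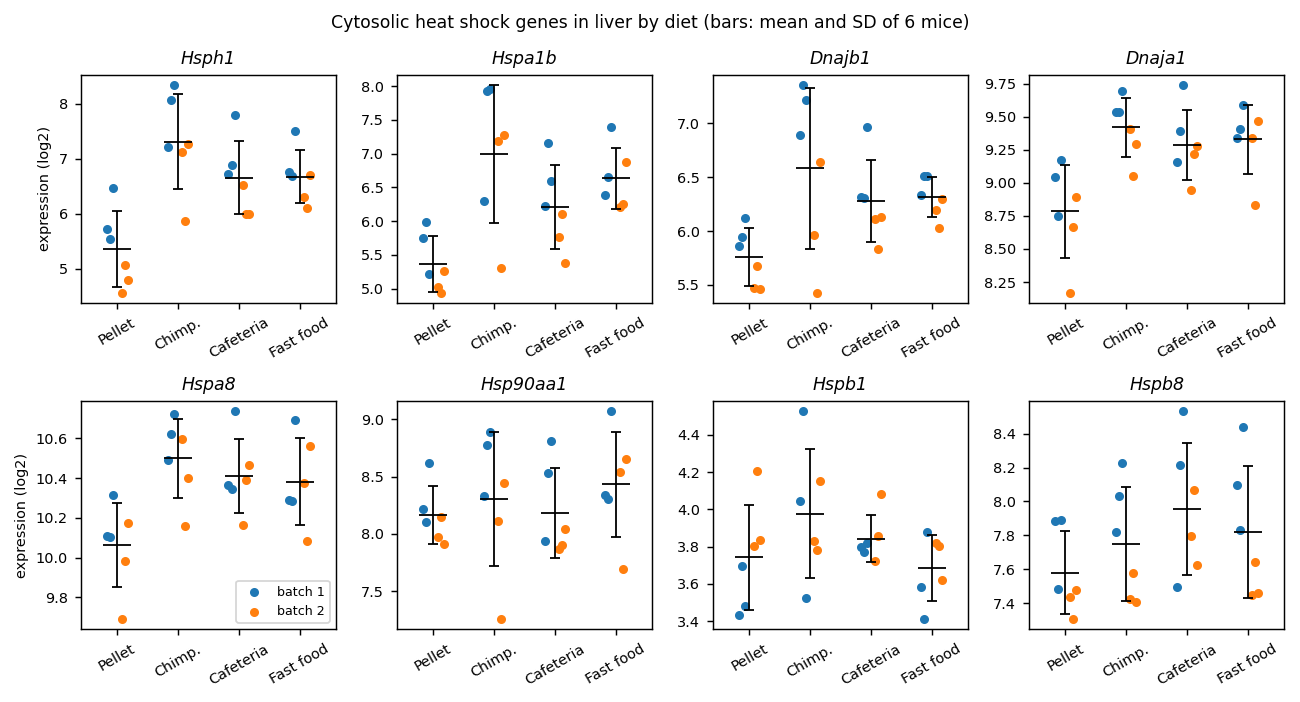
Liver expression (log2) of the 8 tested members in each mouse by diet, where blue points are batch 1, orange points batch 2 and black bars the diet mean with its SD (6 mice). For Hsph1 the pellet mice average 5.36 and the chimpanzee mice 7.32, with both human diets in between at 6.66 and 6.68.

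Hsph1, the HSP110 protein that exchanges nucleotide on HSP70, had the smallest p of the members (adjusted p = 8.94e-05). On pellets its lowest, median and highest values were 4.56, 5.30 and 6.47. Under the chimpanzee diet they were 5.86, 7.25 and 8.35. Under the cafeteria diet they were 5.999, 6.62 and 7.80, and under the fast food diet 6.10, 6.70 and 7.50. Pellet mice were the low group, and 5 of the 18 other mice lay below the highest pellet mouse. Within each batch, however, all 3 pellet mice lay below all 9 others, which held for 2 of the 8 members and for 0.478% of all genes. The difference from pellets was 1.96 ± 0.25 (SE) under the chimpanzee diet, or 3.89-fold (limma, adjusted p = 1.44e-05), and 1.31 ± 0.18 under the human diets, or 2.48-fold (adjusted p = 0.000108). A further probe set of Hsph1 differed by 1.57 ± 0.27 and 1.03 ± 0.20 in the same comparisons.

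Hspa1b is a stress-inducible HSP70, found at low levels in unstressed cells. Its pellet values were 4.94, 5.24 and 5.99 (lowest, median and highest), and its chimpanzee diet values were 5.31, 7.24 and 7.96. The cafeteria values were 5.38, 6.17 and 7.15, and the fast food values 6.21, 6.52 and 7.40. All fast food mice lay above all pellet mice, while 3 mice of the other diets lay below the highest pellet mouse. As for Hsph1, pellet mice were below all others within each batch. Hspa1b was 3.1-fold higher under the chimpanzee diet than on pellets (1.63 ± 0.30, limma adjusted p = 0.000885) and 2.08-fold higher under the human diets (1.05 ± 0.19, adjusted p = 0.0017). Both further probe sets had differences of the same sign, 2.17 ± 0.39 and 2.08 ± 0.36 for the chimpanzee diet, and all 3 may read Hspa1a as well.

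The constitutive HSP70, Hspa8, moved over a much smaller range. Pellet mice ran from 9.69 through a median of 10.11 to 10.32, and chimpanzee diet mice from 10.16 through 10.54 to 10.72. Cafeteria mice ran from 10.17 through 10.38 to 10.74, and fast food mice from 10.08 through 10.33 to 10.70. The groups overlapped, with 5 of the 18 other mice below the highest pellet mouse. Hspa8 was 1.35-fold higher under the chimpanzee diet than on pellets (0.44 ± 0.11, limma adjusted p = 0.00938) and 1.26-fold higher under the human diets (0.33 ± 0.09, adjusted p = 0.0444). The second of these calls was lost when any 1 of 11 of its 18 mice was left out, with an adjusted p of up to 0.154. Of the other Hspa8 probe sets, 2 had positive differences in both comparisons (0.33 to 0.42), each called in 1 of them, and the dimmest had -0.25 ± 0.23 for the chimpanzee diet and 0.30 ± 0.20 for the human diets, neither called.

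Dnaja1 and Dnajb1 are J-domain partners of HSP70, and Dnajb1 is a classical heat-inducible gene. Dnaja1 lay at 8.17, 8.82 and 9.18 on pellets (lowest, median and highest), and at 9.05, 9.47 and 9.69 under the chimpanzee diet. It lay at 8.95, 9.25 and 9.74 under the cafeteria diet, and at 8.83, 9.37 and 9.585 under the fast food diet. Of the 18 other mice, 4 lay below the highest pellet mouse. Dnaja1 was 1.55-fold higher under the chimpanzee diet (0.64 ± 0.13, limma adjusted p = 0.0016) and 1.44-fold higher under the human diets (0.525 ± 0.12, adjusted p = 0.00874). Its dimmest probe set had differences of 0.23 ± 0.16 and 0.31 ± 0.18 in these comparisons and was not called. Its other further probe set was called for the chimpanzee diet (0.38 ± 0.11, adjusted p = 0.0345) and not for the human diets (0.37 ± 0.11, adjusted p = 0.0721).

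Dnajb1 had pellet values of 5.46, 5.77 and 6.13, and chimpanzee diet values of 5.43, 6.76 and 7.36. Its cafeteria values were 5.835, 6.22 and 6.97, and its fast food values 6.03, 6.32 and 6.51. The chimpanzee diet mice were the most spread (SD 0.75, against 0.19 to 0.38 in the other groups), and 1 of them lay below every pellet mouse. Dnajb1 was 1.77-fold higher under the chimpanzee diet (0.82 ± 0.17, limma adjusted p = 0.00263) and 1.45-fold higher under the human diets (0.54 ± 0.09, adjusted p = 0.00112). The chimpanzee difference was 1.18 in batch 1 and 0.47 in batch 2. A further Dnajb1 probe set was called for the chimpanzee diet (0.84 ± 0.25, adjusted p = 0.0316) and not for the human diets (0.57 ± 0.18, adjusted p = 0.0774).

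The low chimpanzee diet mouse was the same for all 5 called members. Chimpanzee batch 2 replicate 2 lay at 5.86 for Hsph1, 5.31 for Hspa1b, 5.43 for Dnajb1, 9.05 for Dnaja1 and 10.16 for Hspa8, the lowest value of its diet each time. It is also 1 of the 4 arrays of lowest signal range, and the part of that range in these values was not tested. Without this mouse the chimpanzee diet differences from pellets were 2.16 (Hsph1), 1.92 (Hspa1b), 1.01 (Dnajb1), 0.68 (Dnaja1) and 0.49 (Hspa8).

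Hsp90aa1, the inducible cytosolic HSP90, did not follow the 5 called members. Its diet means were 8.16 (pellet), 8.30 (chimpanzee), 8.18 (cafeteria) and 8.43 (fast food), with SDs of 0.25 to 0.585, and all 4 groups overlapped. Its difference from pellets came to 0.14 ± 0.20 with chimpanzee food and 0.14 ± 0.16 with human food. None of its 4 kept probe sets was called in either comparison.

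The small heat shock proteins did not pass either. Hspb1 lay near the low-value level, with diet means from 3.69 (fast food) to 3.98 (chimpanzee), and its chimpanzee difference from pellets was 0.24 ± 0.13 (limma adjusted p = 0.328). A second Hspb1 probe set had a difference of 0.44 ± 0.13 there and passed when all probe sets were tested (adjusted p = 0.0332). Hspb8, which works with the co-chaperone BAG3, had diet means from 7.58 (pellet) to 7.96 (cafeteria), and its human diet difference from pellets was 0.31 ± 0.13 (adjusted p = 0.248). Its 2 further probe sets had differences of 0.22 ± 0.10 and 0.044 ± 0.073 there and were not called.

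Hspa1a, the twin gene of Hspa1b, was above the low-value level in 2 arrays only and was not tested. Its pellet mice ran from 2.36 to 2.44 and its chimpanzee diet mice from 2.48 to 3.53, with cafeteria mice from 2.44 to 2.84 and fast food mice from 2.44 to 2.885. At such low values the size of a difference has little meaning.

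The comparison of human diets with pellets called 5 of 8 members, all higher under the human diets, where 4.98% of all genes were called and 2.15% were called and higher. The median difference of the members was 0.43, beside -0.0057 over all genes tested. The comparison of the chimpanzee diet with pellets also called 5 of 8, all higher, against 10.4% of all genes called and 2.93% called and higher. Here the member median was 0.54, beside -0.0044. Both comparisons use the same 6 pellet mice and so are not independent of each other. Counted by probe set, 9 of 23 were called for the human diets (4.44% of all probe sets) and 12 of 23 for the chimpanzee diet (9.38%), all of them higher. Each human diet alone gave fewer calls. Hsph1 and Dnaja1 were called for the cafeteria diet against pellets (2 of 8, where 4.8% of all genes were), at 1.30 ± 0.25 and 0.50 ± 0.13. Hsph1, Hspa1b and Dnaja1 were called for the fast food diet against pellets (3 of 8, where 3.4% of all genes were), at 1.32 ± 0.25, 1.27 ± 0.30 and 0.55 ± 0.13. The cafeteria call of Dnaja1 was lost without HumanCafe batch 1 replicate 3 (limma adjusted p = 0.0559) or Pellet batch 2 replicate 1 (0.0534). The fast food call of Hspa1b was lost without FastFood batch 2 replicate 3 (limma adjusted p = 0.0503) or Pellet batch 1 replicate 3 (0.0509). Other calls were gained when a mouse was left out, given here with their log2 differences. Dnajb1 was called for each human diet without Chimpanzee batch 2 replicate 2, which shares the fit (differences of 0.52 and 0.56). Hspb8 was called for the cafeteria diet without HumanCafe batch 1 replicate 1 (difference of 0.52). Hspa8 was called for the cafeteria diet without HumanCafe batch 2 replicate 1 (difference of 0.38).

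**Figure D2:**
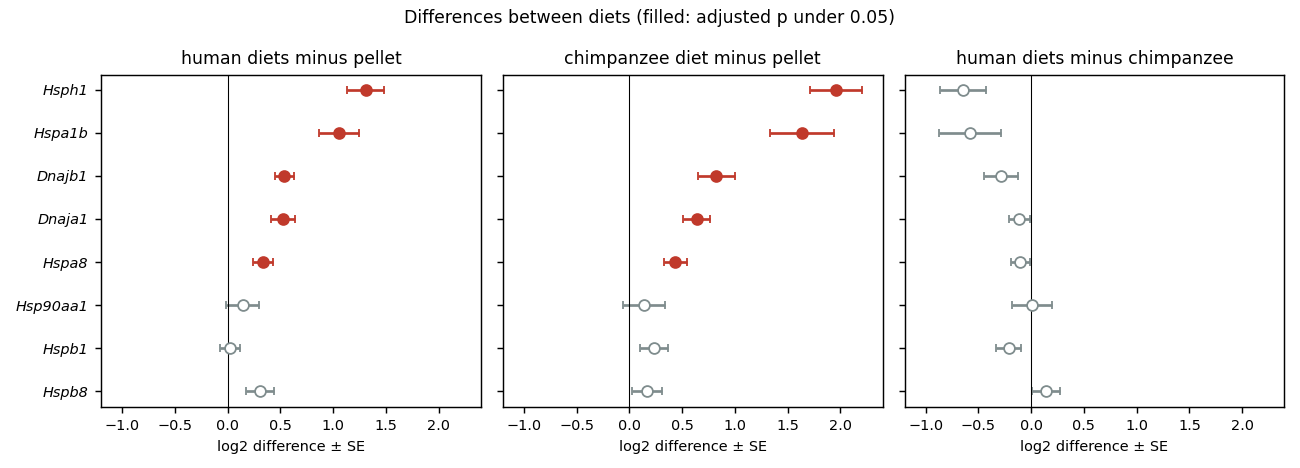
Log2 differences between diets (horizontal axis, with SE) of the 8 tested members, with filled red points for an adjusted p under 0.05. The 5 called members lie at 0.33 to 1.31 for human diets minus pellets and at 0.44 to 1.96 for the chimpanzee diet minus pellets, and no point is filled for human diets minus the chimpanzee diet.

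Between human and chimpanzee diets, 0 of 8 members passed by limma, where 1.49% of all genes did, and 1 of 8 had an unadjusted p under 0.05. That member was Hsph1, at -0.65 ± 0.22 (adjusted p = 0.146), and its difference was -0.815 in batch 1 and -0.48 in batch 2. Hspa1b was at -0.58 ± 0.295 (adjusted p = 0.387) and Dnajb1 at -0.29 ± 0.16 (adjusted p = 0.445). Of the 8 differences 6 were negative, and the median was -0.16, beside 0.0039 over all genes. Hsph1 passed under 5 other ways of processing the values, including quantile normalization between arrays (-0.75, adjusted p = 0.0429), so its call depended on the processing. The methods' own procedure put its unadjusted p at 0.0173. Taken alone, the cafeteria diet differed from the chimpanzee diet in 0 of 8 members by limma (1.26% of all genes) and the fast food diet in 0 of 8 (2.03%), each with 2 at an unadjusted p under 0.05. These p values do not show that human and chimpanzee diets act alike on these genes.

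The cafeteria and fast food diets differed in 0 of 8 members by limma, where 0.00747% of all genes passed, and 0 had an unadjusted p under 0.05. The largest difference of these was Hspa1b at -0.43 ± 0.30 (adjusted p = 0.998), with a cafeteria mean of 6.20 and a fast food mean of 6.63.

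The beta-actin measure of RNA quality and some markers of cell content moved along with some of these comparisons. The difference between 3' and 5' probe sets of beta-actin, which grows as RNA is broken down, had a mean of 1.08 ± 0.15 (SD) in chimpanzee diet mice, 0.75 ± 0.14 in pellet mice and 0.85 ± 0.11 in human diet mice. The chimpanzee value was higher than that on pellets (exact permutation p = 0.005, adjusted 0.0225 over 9 tests), and human diets and pellets differed by 0.099 (exact permutation p = 0.12, adjusted 0.253). Human diets lay below the chimpanzee diet by 0.23 (exact permutation p = 0.000992, adjusted 0.00893), so this measure differed in the comparison in which Hsph1 was at -0.65. The same measure for pyruvate carboxylase passed in no comparison. It was 0.42 for the chimpanzee diet minus pellets (exact permutation p = 0.09, adjusted 0.253) and -0.30 for human diets minus the chimpanzee diet (exact permutation p = 0.169, adjusted 0.253). With the beta-actin difference as a covariate, Hsph1 was at -0.87 ± 0.30 between human and chimpanzee diets (limma adjusted p = 0.483). With this measure as a covariate, Hsph1, Hspa1b, Dnajb1 and Dnaja1 kept their calls in both comparisons with pellets, and Hspa8 was not called (adjusted p = 0.083 for the chimpanzee diet and 0.0966 for the human diets). The Hspa8 differences were no smaller in that fit, at 0.55 ± 0.16 and 0.34 ± 0.105, with larger standard errors. Of 8 Kupffer cell markers, 4 fell under the chimpanzee diet against pellets (Clec4f, Cd68, Vsig4 and C1qb). Marco went the other way (0.37 ± 0.16, limma adjusted p = 0.163), and Adgre1, Cd5l and C1qa were lower but not called. The mean of the 8 ranged from 5.73 to 6.57 on pellets, 4.875 to 6.10 under the chimpanzee diet, 4.77 to 6.52 under the cafeteria diet and 5.63 to 6.71 under the fast food diet. Of 6 stellate cell markers, Col3a1 was lower under the chimpanzee diet than on pellets (-1.22 ± 0.26, limma adjusted p = 0.00302) and higher with human food than with chimpanzee food (0.86 ± 0.215, adjusted p = 0.0492). Against pellets, Des was higher under the chimpanzee diet (0.16 ± 0.10), Lrat, Reln, Dcn and Col1a1 were lower, and none of these was called. The mean of the 6 ranged from 5.225 to 5.90 on pellets, 4.94 to 5.57 under the chimpanzee diet, 5.32 to 5.91 under the cafeteria diet and 5.33 to 5.89 under the fast food diet. Of 6 sinusoidal endothelial markers, Cdh5 was lower under the chimpanzee diet than on pellets (-0.42 ± 0.12, limma adjusted p = 0.029). Stab2 was higher there (0.17 ± 0.13), Pecam1, Lyve1, Clec4g and Kdr were lower, and none of these was called. The mean of the 6 ranged from 5.12 to 5.78 on pellets, 5.02 to 5.62 under the chimpanzee diet, and 5.055 to 5.745 over both human diets. The part of these markers in the member differences was not tested, and between human diets and pellets 0 markers of these 3 lists were called by limma (1 Kupffer cell marker had an unadjusted p under 0.05). In whole liver, fewer cells of a type and less RNA per cell cannot be told apart.

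The called members varied together over the 24 mice, with the diet differences left in. After removal of each gene's batch mean, Pearson's r over the 24 mice lay between 0.685 and 0.944 for the 10 pairs of Hsph1, Hspa1b, Dnajb1, Dnaja1 and Hspa8, and was highest for Hspa8 with Dnaja1. Hsp90aa1 had r of 0.543 to 0.616 with these 5, although its diet means hardly differed. Hspb1 had r of 0.15 to 0.459 with them, and Hspb8 0.305 to 0.465. The mice share arrays, batches and diets, so these values describe the data set and carry no test. The 5 members were called for their diet differences, so high r among them follows in part from that choice. The signal range of the arrays, measured the same way, had r of -0.065 to 0.055 with the 5 called members and 0.396 with Hsp90aa1. For the beta-actin difference between 3' and 5' probe sets, r was 0.261 (Dnajb1) to 0.478 (Hsph1) with these 5 and -0.122 with Hsp90aa1.

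**Figure D3:**
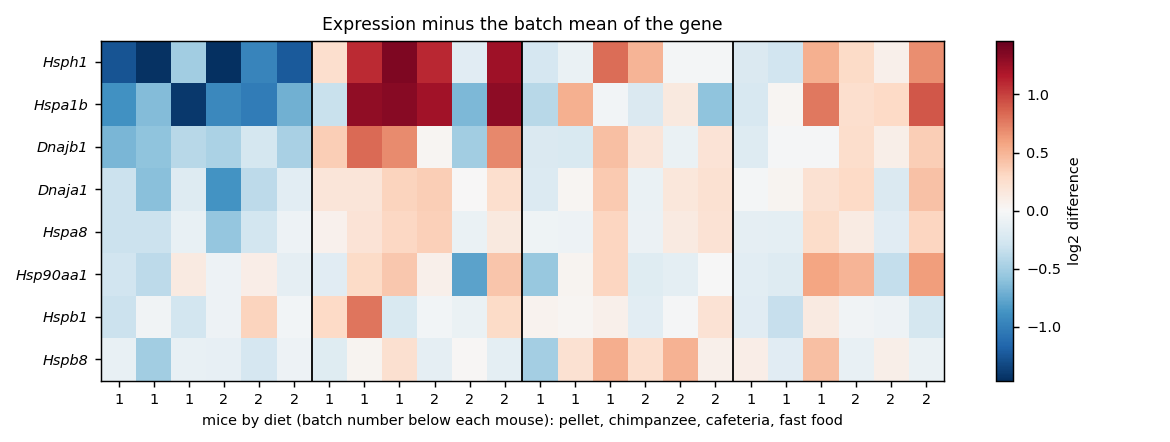
Expression of the 8 tested members in each of the 24 mice minus the mean of the gene in that mouse's batch (log2, red above and blue below), with mice in columns by diet and the batch number under each. Hsph1 and Hspa1b are blue in all 6 pellet mice, and Hsp90aa1, with diet means of 8.16 to 8.43, shows no such block.

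Among genes that are not members, those whose pattern over the 24 mice was most like that of Hsph1 were Tspan4 (r = 0.911), a tetraspanin, Nampt (r = 0.852), which makes NAD from nicotinamide, and Homer2 (r = 0.85), a scaffold protein. For Hspa8 they were Tspan4 (r = 0.831), Akap8 (r = 0.826), an anchor of protein kinase A, and Pdxk (r = 0.815), which activates vitamin B6. All were lower on pellets than under each of the other diets, by 1.00 ± 0.11 for Tspan4 and 1.48 ± 0.16 for Nampt against the chimpanzee diet. Diet differences were left in for this ranking, so a low pellet mean goes with the way these genes were picked.

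The helpers of HSP70 and HSP90 are given as single genes, and their counts stand beside 4.98% of all genes called for the human diets against pellets and 10.4% for the chimpanzee diet. Of 18 HSP70 co-chaperones and exchange factors, 1 was called under the human diets against pellets and 2 under the chimpanzee diet, each of them higher than on pellets. Dnajb6, a J-domain protein that prevents aggregation, rose by 0.67 ± 0.11 and 0.45 ± 0.12. Bag3, an exchange factor that is itself induced by heat, rose by 0.67 ± 0.14 under the chimpanzee diet (adjusted p = 0.0026) and was 0.12 ± 0.11 above pellets under the human diets. It was the 1 gene of this list that was called between human and chimpanzee diets, at -0.55 ± 0.125 (adjusted p = 0.035).

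Of 13 HSP90 co-chaperones, 1 was called for the human diets against pellets and 3 for the chimpanzee diet, of which 2 rose and 1 fell. Chordc1, a heat-inducible partner of HSP90, was higher by 0.80 ± 0.15 under the human diets and by 0.71 ± 0.21 under the chimpanzee diet. Fkbp5, a co-chaperone of steroid receptors that glucocorticoids induce, was at 6.95 on pellets, 7.81 under the chimpanzee diet, 7.003 under the cafeteria diet and 7.15 under the fast food diet. It was thus higher under the chimpanzee diet than on pellets (0.86 ± 0.15, limma adjusted p = 0.000395) and lower with human food than with chimpanzee food (-0.74 ± 0.14, adjusted p = 0.0105). Ttc4 fell by 0.21 under the chimpanzee diet.

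The further lists of the pathway stand beside the same shares of all genes. Some lists share genes, and the calls of Bag3 and Chordc1 below are the same as those given above. HSF1 itself was not analysed here, and of 5 other genes of HSF1 and its regulators Bag3 alone was called. Of 12 further heat-inducible genes, Chordc1 was called for the human diets and Chordc1 and Bag3 for the chimpanzee diet, and their medians were 0.17 and 0.095. Of 14 other cytosolic HSP70, HSP110 and small heat shock genes, 0 were called in any comparison by limma. At an unadjusted p under 0.05 there were 0 for the human diets against pellets and 1 for the chimpanzee diet. Hspa4 had diet means of 7.03 to 7.13 and Hspa14 of 4.53 to 4.98. All others of this list lay near the low-value level, with diet means from 3.05 (Hspa1l, pellets) to 4.185 (Hspa4l, fast food). For those genes the absence of calls does not show that diet has no effect. Of 14 chaperonin and prefoldin genes, Cct3, a subunit of the ring chaperonin that folds actin and tubulin, was the only one called against pellets, at -0.42 ± 0.12 and -0.57 ± 0.14. Cirbp, an RNA-binding protein known to rise in the cold, fell by 0.62 ± 0.13 under the human diets and by 0.57 ± 0.14 under the chimpanzee diet. Its mean was 4.07 on pellets and 3.425 to 3.50 under the other diets, near the low-value level, so the size of this fall is uncertain. It was the 1 gene tested of 2 listed cold-inducible RNA-binding proteins.

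Most of the called chaperones of the endoplasmic reticulum fell. Of 16 chaperones of the endoplasmic reticulum, 12 fell and 1 rose under the human diets against pellets, and 8 fell and 1 rose under the chimpanzee diet, with medians of -0.515 and -0.50. Of all genes tested, 2.82% and 7.43% fell. Sdf2l1 fell by 1.55 ± 0.16 and by 1.67 ± 0.195 in these comparisons, and the gene that rose was Dnajb9, by 0.72 ± 0.15 and 1.18 ± 0.21. Of 11 mitochondrial chaperones and proteases, Clpx, the unfolding part of a protease, was the 1 called against pellets, at -0.89 ± 0.19 and -0.90 ± 0.20.

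**Figure D4:**
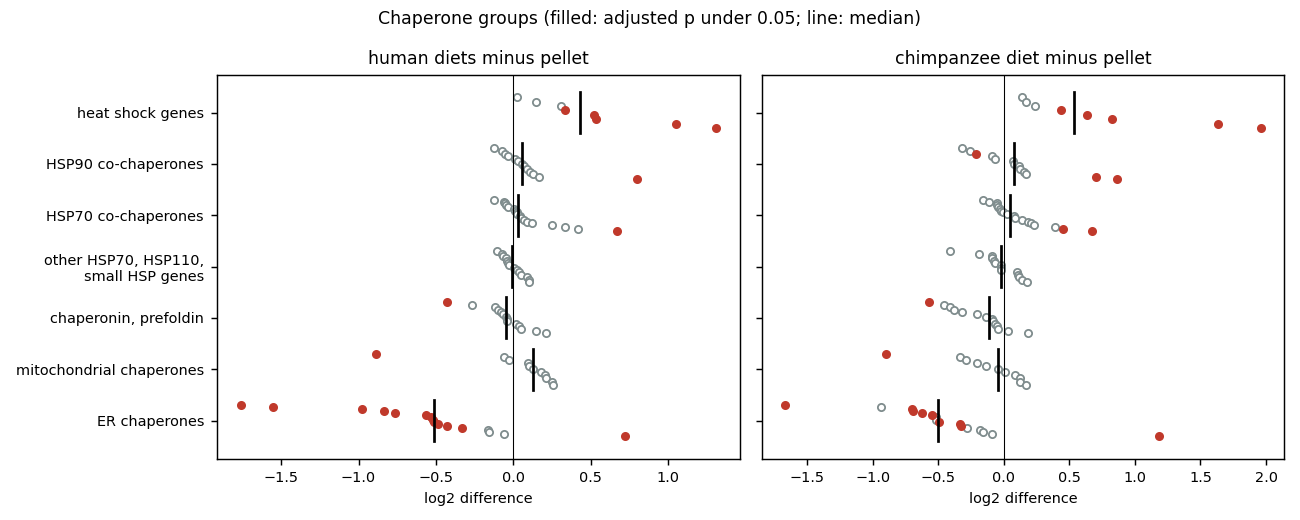
Log2 differences from pellets (horizontal axis) of every tested gene in 7 chaperone groups, for the human diets on the left and the chimpanzee diet on the right, with filled points for an adjusted p under 0.05 and a black line for the group median. The median of the cytosolic heat shock genes lies at 0.43 and 0.54 and that of the endoplasmic reticulum chaperones at -0.515 and -0.50.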

How the data were processed

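The authors deposited log2 expression values, 1 column per mouse, made from Affymetrix mouse genome arrays. The methods name the rma procedure of the affy package with normalization by quantiles, but the 90th percentiles of the deposited columns ran from 5.66 to 6.61, where values normalized by quantiles over these arrays would have nearly equal percentiles. How the columns were normalized is therefore not settled, and quantile normalization was run as an alternative. No source used here gives the affy version. The 24 arrays correlated at 0.9251 to 0.9955, and their number limits the precision.

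Probe sets were named by the platform annotation. Of 45101, 64 were controls, 34945 had 1 symbol, 932 had several and 9160 had none, and the last 2 groups were not named. Low probe sets were removed by asking for at least 6 arrays above 3.147, the overall median. Where several probe sets of a gene remained, the one with the highest mean stood for it (13385 genes). Groups and batches came from the sample labels. The litters of the mice, which the study distributed among diets, are in no label.

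Diets were compared with limma 3.58.1 in R 4.3.3, with batch as covariate and two-sided tests at a Benjamini-Hochberg adjusted p of 0.05 over all genes tested. Comparisons with human diets used the 18 mice involved, and other pairs used a fit of all 24. Probe sets for actin ends were compared by exact permutation within batches. The fits were tested on simulated data. Further probe sets of a member were tested in a fit of all probe sets, and for each list up to 4 called genes could be named. For Hsph1 and Hspa8 the 3 other genes most correlated over mice were named. Alternatives were other filters, each probe set as a feature, single batches or no batch term, a block for the replicate number, other normalizations and covariates, array weights, an intensity trend, other choices of mice, each mouse left out, and the methods' procedure (two-way model, unadjusted p of 0.01). That procedure with Benjamini-Hochberg adjustment was added after seeing the data. Members, lists and tests were chosen with earlier results of these data known. Brain arrays were not analysed here.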

Additional observations from a re-analysis of the deposited data

Results flagged for a closer look

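Of 32 groups of 6 mice (8 members, 4 diets), 2 held a mouse that stood apart from the others of its diet, where chance alone marks about 1 in 20 groups. FastFood batch 2 replicate 2 lay at 8.83 for Dnaja1, below the next fast food mouse at 9.34. Without it the human diet difference of Dnaja1 from pellets was 0.56 ± 0.11 (limma adjusted p = 0.00486). HumanCafe batch 2 replicate 3 lay at 4.08 for Hspb1, above the next cafeteria mouse at 3.86. Both mice are among the 4 arrays of lowest signal range.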

How the results depend on the processing

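No member difference with an unadjusted p under 0.05 changed sign under any alternative run. Across the 4 diets, 2 of 8 members were called without batch in the fit, 2 in batch 1 alone and 0 in batch 2 alone, where the smallest adjusted p by limma was that of Hsph1 (0.129). For human diets against pellets the count was 3 without batch, 2 in batch 1 and 1 in batch 2, and for the chimpanzee diet against pellets it was 1 in batch 2. Each batch alone holds fewer mice. For human diets against the chimpanzee diet the count went from 0 to 1 (Hsph1) with quantile normalization, cyclic loess or the 90th percentile as covariate, and to 2 (Hsph1 and Dnajb1) without the 4 arrays of lowest range. The cause was not tested.

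With each mouse left out in turn, the counts ran from 4 to 6 across diets, from 0 to 0 for human against chimpanzee diets, from 4 to 5 for human diets against pellets, from 5 to 5 for the chimpanzee diet against pellets and from 0 to 0 for cafeteria against fast food. Hspa8 lost its call across diets without Chimpanzee batch 1 replicates 2 or 3 or batch 2 replicate 1, or without Pellet batch 1 replicates 1 or 2 or batch 2 replicates 1 or 2 (adjusted p up to 0.118). Its call for human diets against pellets was kept only without FastFood batch 1 replicates 1 or 2 or batch 2 replicate 2, HumanCafe batch 2 replicates 1 or 3, or Pellet batch 1 replicate 3 or batch 2 replicate 3. Hspb8 gained a call across diets without HumanCafe batch 1 replicate 1 (0.0232). With no low-value filter Hspa1a was called too. The replicate number as a block gave 1 call for human against chimpanzee diets (Hsph1, adjusted p = 0.047) and changed no other count. The numbers showed no clear pairing of the mice. Correlations of same-numbered mice ran from -0.635 to 0.407, with a median of 0.0122. On average, 11 of 24 mice were closer to their own number than to the other numbers, among other diets in their batch.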
